A study of Homo sapiens with 54 samples.

Results

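*GADD45A*, *GADD45B* and *GADD45G*, the 3 genes of the growth arrest and DNA damage inducible 45 family, were followed together with the p53 targets *CDKN1A* and *MDM2* through every RNA-seq library. These 5 genes were picked by name from the 60676 genes of each table, and all 5 passed the filter on low counts in every experiment. GADD45 proteins are small stress sensors that bind PCNA, cyclin-dependent kinase 1 and the kinase MAP3K4, and neurons switch *GADD45B* on rapidly after activity, where it has been linked to active DNA demethylation. The transcription factor p53 is held low by MDM2, the ubiquitin ligase that marks it for breakdown. Active p53 induces *CDKN1A* (the cell cycle inhibitor p21), *GADD45A* and *MDM2* itself, which closes a feedback loop.

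The cells were hMSN-like cells, cultures differentiated from H9 (WA09) human embryonic stem cells toward the medium spiny neurons (MSNs) of the striatum, which receive dopamine. All libraries come from this 1 line, and the cultures are mixed and neuron-like. In the dose experiments, cultures received 1 mM or 1 µM dopamine acutely or, chronically, over 5 days, RNA was taken 1 h or 24 h later (Acute 1 h, Acute 24 h, Chronic 1 h, Chronic 24 h), and each dose had its own PBS libraries. In the time course, 1 mM dopamine was given daily for 2, 3, 4 or 5 days with ascorbic acid as control, and in the agonist experiment the D1-like receptor agonist SKF82958 or the D2-like receptor agonist quinpirole, both at 50 µM, was compared with water. Per the study's methods dopamine was dissolved in ascorbic acid, which the PBS label does not name. Acute and chronic dose cultures were harvested at different days of differentiation, and the labels do not give the day of the PBS libraries. Each group had 3 libraries except 5 Day, where 2 were used. Where libraries of 2 groups are said to be separated or not to overlap, the share of all genes doing so was not counted. The study calls its replicates independent, but neither it nor the labels say for these libraries that they were separate cultures, so p-values measure the spread between these libraries, part of which may be technical.

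General neuron markers were high in 52 of the 53 libraries, with median TPM (the deposited transcript level per length) of 1175 for *STMN2* and 460 for *MAP2*. Markers of the striatal projection neuron were much lower, at median TPM 14.4 for *PPP1R1B* (DARPP32), 1.63 for *DRD1* and 3.69 for *DRD2*, and *DRD1* was at 0 in 1 library. Cycling and progenitor genes were present as well, with median TPM 76.7 for *MKI67* and 505 for *SOX2*. Median TPM was 1.44 to 31.0 over astroglia markers and 5.69 to 40.8 over mesenchymal markers. The levels below are therefore those of mixed cultures, and which cells express the GADD45 genes and *CDKN1A* was not tested. In bulk RNA, fewer cells of a type and less RNA per cell cannot be told apart. The 52 libraries held 5755919 to 27702963 exon reads, whereas quinpirole replicate 1 held 137051, with 96.7% of its gene reads in introns. The first library of 1 mM Acute 24 h also stood apart, with the highest TPM of 52 libraries for *GADD45A*, *GADD45G*, *CDKN1A* and *MDM2*. Results that rest on either library are given with and without it.

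The genes lie on 5 chromosomes of GRCh38, all on the plus strand. *GADD45A* (ENSG00000116717) spans chromosome 1, 67685201 to 67688334, *GADD45B* (ENSG00000099860) chromosome 19, 2476122 to 2478259, and *GADD45G* (ENSG00000130222) chromosome 9, 89605012 to 89606555. *CDKN1A* (ENSG00000124762) spans chromosome 6, 36676460 to 36687339, and *MDM2* (ENSG00000135679) chromosome 12, 68808177 to 68850686. Exon reads of *CDKN1A* may include reads of the antisense gene *DINOL* at its 5′ end, because the strand used in counting is not given in the sources used here.

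The bases just upstream of the transcription starts are shown because the 5 genes moved differently with dopamine, as described below. RefSeq windows (GRCh38.p14, plus strand, 5′ to 3′, the 250 bases before the start) were found for 4 of the 5 genes, and *GADD45A* was not matched. Capitals mark every match, on either strand, to the letters searched, which were TATAAA for the TATA box, CCAAT for the box bound by NF-Y, GGGCGG for the GC box of SP1, TGANTCA for AP-1, TGACGTCA for CREB with TGACG as its core, GCGTGGGCG for EGR1, the CArG box of SRF and the p53 half-site. *GADD45B* is shown at chr19:2475877-2476126, *GADD45G* at chr9:89604762-89605011, *CDKN1A* at chr6:36678464-36678713 and *MDM2*, from the second of its 2 starts and the one with an AP-1 match, at chr12:68808767-68809016.
GADD45B: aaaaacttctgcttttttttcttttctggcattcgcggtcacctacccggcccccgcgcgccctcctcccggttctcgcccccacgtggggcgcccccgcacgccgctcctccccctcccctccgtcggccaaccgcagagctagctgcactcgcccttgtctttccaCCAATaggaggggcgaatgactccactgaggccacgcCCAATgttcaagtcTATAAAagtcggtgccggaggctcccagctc
GADD45G: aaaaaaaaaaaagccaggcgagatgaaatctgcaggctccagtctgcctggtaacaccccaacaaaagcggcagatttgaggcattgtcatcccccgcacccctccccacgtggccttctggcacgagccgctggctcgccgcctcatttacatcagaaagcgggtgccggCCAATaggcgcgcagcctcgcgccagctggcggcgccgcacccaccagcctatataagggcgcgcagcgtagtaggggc
CDKN1A: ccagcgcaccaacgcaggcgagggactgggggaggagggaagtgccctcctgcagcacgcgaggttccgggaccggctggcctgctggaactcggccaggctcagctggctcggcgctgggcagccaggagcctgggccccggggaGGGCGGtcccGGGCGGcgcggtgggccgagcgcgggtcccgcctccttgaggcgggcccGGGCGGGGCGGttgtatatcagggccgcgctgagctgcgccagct
MDM2: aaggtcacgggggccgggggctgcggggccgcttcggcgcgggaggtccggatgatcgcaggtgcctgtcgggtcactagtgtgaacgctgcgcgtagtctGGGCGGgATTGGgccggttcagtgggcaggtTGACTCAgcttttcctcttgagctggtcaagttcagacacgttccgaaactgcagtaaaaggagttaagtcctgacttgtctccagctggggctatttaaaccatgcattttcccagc
Counting back from the start, *GADD45B* held CCAAT at -82 and -45 and TATAAA at -31. The window of *GADD45G* had CCAAT at -79 and no TATAAA, though it holds the letters TATATAA, which were not searched. That of *CDKN1A* had GGGCGG at -104, -94, -45 and -40, the last pair overlapping. *MDM2* had GGGCGG at -149, CCAAT on the minus strand at -142 and the AP-1 letters at -118. Among 35116 windows of all genes, TATAAA was in 10.7%, CCAAT in 32.0%, GGGCGG in 42.6% and TGANTCA in 6.57%. None of the 4 windows held TGACGTCA (1.65% of all windows), TGACG (21.2%), GCGTGGGCG (0.720%) or an exact match to the consensus of the CArG box (1.16%) or of the p53 half-site (5.57%). Exact consensus letters were searched, and elements that depart from them were not looked for, so no match says nothing of p53, SRF or a TATA element at these promoters. Matches are letters, not sites of binding.

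Over 52 libraries, leaving out quinpirole replicate 1, *CDKN1A* was the most abundant of the 5 genes and *GADD45B* the least. The median TPM was 264 for *CDKN1A* (47.9 to 794), 86.2 for *GADD45A* (37.2 to 463), 74.8 for *GADD45G* (12.4 to 374), 38.0 for *MDM2* (27.5 to 166) and 17.1 for *GADD45B* (0.860 to 105). *GADD45B* had the widest range, a ratio of 122 between its highest and lowest library, against 30.1 for *GADD45G*, 16.6 for *CDKN1A*, 12.5 for *GADD45A* and 6.04 for *MDM2*. Its lowest libraries rest on few reads, 4, 24 and 11 exon reads in the 1 µM Acute 24 h group. Elsewhere 3 exon reads, taken as the limit of detection for counting error only, correspond to at most TPM 1.44 for any of the 5 genes.

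By group mean, *GADD45B* was highest after SKF82958 (94.2), then quinpirole without its first library (75.0), 1 mM Acute 1 h (50.9), 1 mM Chronic 1 h (41.8) and 3 Day (34.6). The libraries of SKF82958 and quinpirole did not overlap, those of 1 mM Acute 1 h and Chronic 1 h did, and those of Chronic 1 h and 3 Day did. Leaving out the first 1 mM Acute 24 h library, *GADD45G* was highest in 1 mM Chronic 1 h (224) and 1 mM Acute 1 h (174), whose libraries did not overlap, and *GADD45A* in 1 mM Acute 1 h (223) and 1 mM Chronic 1 h (190.2), which did not overlap either. *CDKN1A* was then highest in 1 mM Chronic 1 h (426) and 1 mM Chronic 24 h (386) and lowest in 1 µM Acute 24 h (131), and *MDM2* was highest in 1 µM Chronic 1 h (51.4) and 1 mM Chronic 1 h (48.3), each leading pair overlapping. These levels are set across separate experiments on the TPM scale alone, and their order was not tested.

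**Figure D1:**
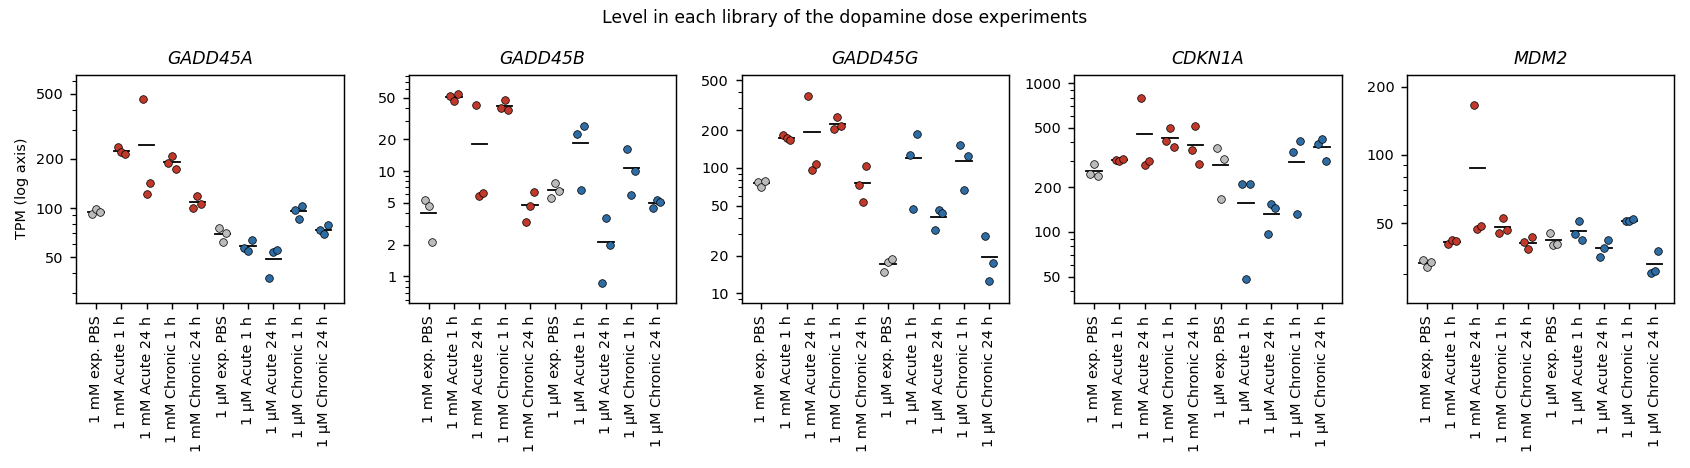
Level of each gene in every library of the dose experiments, as TPM on a log axis, with 1 mM libraries in red, 1 µM libraries in blue, PBS libraries in grey and group means as lines. *GADD45B* rises from 2.10 to 5.31 in PBS to 46.6 to 53.8 at 1 mM Acute 1 h, and the first library of 1 mM Acute 24 h lies far above the other two for all 5 genes.

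One hour after an acute dose of 1 mM dopamine, all 3 GADD45 genes passed the test as higher in the fit of all groups. Neither *CDKN1A* nor *MDM2* did, though both passed in the fit of only Acute 1 h and PBS. *GADD45B* was at TPM 5.31, 4.67 and 2.10 in the PBS libraries and at 52.2, 46.6 and 53.8 at Acute 1 h. Every dosed library was far above every PBS library. The log2(fold change) was 3.72 ± 0.61 (SE, n = 3 and 3, edgeR adjusted p = 0.002), the largest of the 5 genes. *GADD45A* went from TPM 92.4, 98.5 and 94.6 to 235, 220 and 214, with log2(fold change) 1.30 ± 0.32 (edgeR adjusted p = 0.0167). *GADD45G* went from TPM 77.1, 70.5 and 78.2 to 182, 174 and 166, with log2(fold change) 1.27 ± 0.36 (edgeR adjusted p = 0.0307). In both genes the PBS and dosed libraries were fully separated. In this comparison 8.04% of the 17804 genes tested were called higher, against 3 of the 5 genes here, where a call is an edgeR adjusted p under 0.05 over all genes tested. *GADD45B* kept its call whichever of the 15 libraries was left out, *GADD45A* lost it in 4 of those fits and *GADD45G* in 6.

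*CDKN1A*, the p21 gene, was at TPM 243, 287 and 239 in PBS and at 306, 300.4 and 308 at 1 mM Acute 1 h. *MDM2* was at 34.4, 32.1 and 33.8 in PBS and at 40.6, 42.4 and 41.6 after the dose. Neither gene's libraries overlapped, but the differences were small, with log2(fold change) 0.31 ± 0.29 (edgeR adjusted p = 0.502) for *CDKN1A* and 0.38 ± 0.31 (edgeR adjusted p = 0.439) for *MDM2*. The 5 groups of the 1 mM experiment shared 1 estimate of the spread, to which the first Acute 24 h library contributed. Without that library the SE fell and the *MDM2* difference of 0.36 ± 0.06 was called (edgeR adjusted p = 0.000301), while that of *CDKN1A*, 0.30 ± 0.16, was not (edgeR adjusted p = 0.15). In that fit 39.8% of 18178 genes were called in either direction. The 4 of 5 genes called, all higher, thus stand against a high background, which counts lower calls too. With only Acute 1 h and PBS in the fit, all 5 genes were called. The share of all genes called in that fit is not given here, so this count has no background beside it.

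At 1 mM Acute 24 h the result turned on 1 library. *GADD45A* was at TPM 463, 122 and 143, *GADD45B* at 42.1, 5.74 and 6.14, and *GADD45G* at 374, 96.4 and 107. *CDKN1A* was at 794, 279.8 and 300.0 and *MDM2* at 166, 47.1 and 48.6. The first library was the highest for all 5 genes, and the other two were close to each other. With all 3 libraries, 4 of the 5 genes were called higher than PBS, where 8.38% of all genes were, namely *GADD45A* (1.17 ± 0.32, edgeR adjusted p = 0.0305), *GADD45B* (1.92 ± 0.60, edgeR adjusted p = 0.047), *GADD45G* (1.17 ± 0.36, edgeR adjusted p = 0.046) and *MDM2* (1.21 ± 0.31, edgeR adjusted p = 0.0243), all as log2(fold change) ± SE. With only the Acute 24 h and PBS libraries in the fit, none of these 4 calls held (edgeR adjusted p = 0.231 to 0.271).

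Without the first library, only the rises of *GADD45A* (0.42 ± 0.09, edgeR adjusted p = 0.00568) and *MDM2* (0.47 ± 0.07, edgeR adjusted p = 0.000417) kept their call, and both became smaller. In that fit 11.1% of genes were called higher. *GADD45B* then differed from PBS by 0.51 ± 0.29 (edgeR adjusted p = 0.204), *GADD45G* by 0.38 ± 0.17 (edgeR adjusted p = 0.113) and *CDKN1A* by 0.13 ± 0.18 (edgeR adjusted p = 0.641). The other two libraries were still above all PBS libraries for *GADD45B* (5.74 and 6.14 against 2.10 to 5.31) and for *GADD45G* (96.4 and 107 against 70.5 to 78.2). Compared directly without that library, Acute 1 h exceeded Acute 24 h by 3.19 ± 0.24 for *GADD45B* (edgeR adjusted p = 4.79e-07), by 0.88 ± 0.17 for *GADD45G* (edgeR adjusted p = 0.00421) and by 0.86 ± 0.09 for *GADD45A* (edgeR adjusted p = 2.58e-05), against 4.08% of genes higher. With all 3 libraries none of the 5 genes was called in that comparison, where 3.49% of all genes were, although 2 had an unadjusted p under 0.05 and DESeq2 called 1.

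The first Acute 24 h library was not high for every gene group. Against the mean of the other two libraries, its TPM was 7.09 times as high for *GADD45B*, 3.69 times for *GADD45G*, 3.50 times for *GADD45A*, 3.47 times for *MDM2* and 2.74 times for *CDKN1A*. Of 38 other p53 targets, 36 were above both other libraries with a median ratio of 2.13, and of 27 immediate early genes, the first genes that neurons and other cells induce after a stimulus, 25 were above with a median ratio of 3.54. Over all 19572 genes compared, 54.1% were above and the median ratio was 1.14. General neuron markers went the other way, with 1 of 5 above both and a summed TPM of 1630 against 3216 and 2987, and PBS libraries at 3457 to 3975. Striatal projection neuron markers did not, with 6 of 9 above both and a summed TPM of 176 against 118 and 118. Dividing progenitor markers had 1 of 6 above both, with a summed TPM of 1414 against 1600.4 and 1552. Mesenchymal markers had 0 of 5 above, with 35.8 against 95.4 and 69.0. The library was not shallow, with 14688981 exon reads and 12.5% of its gene reads in introns, and the part of any of these differences in the result was not tested.

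**Figure D2:**
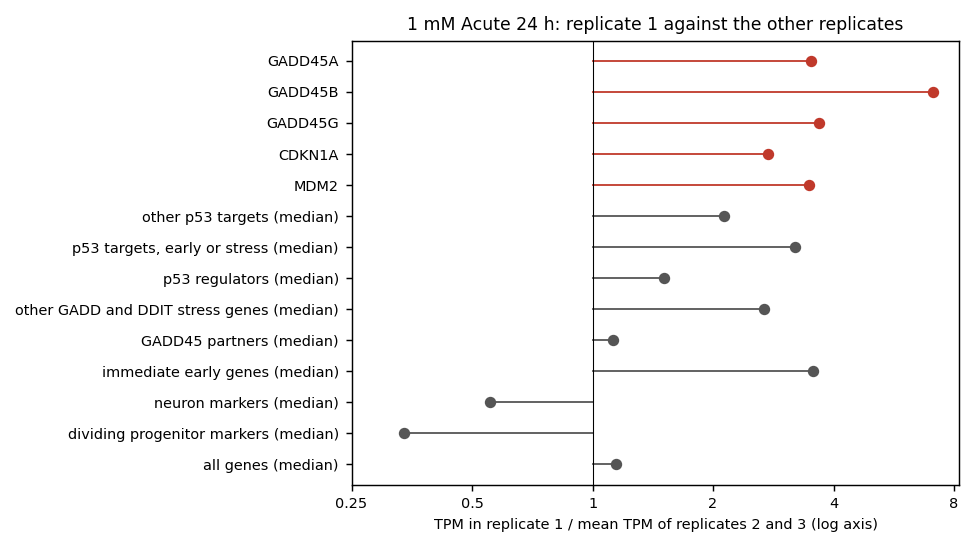
Ratio of TPM in the first 1 mM Acute 24 h library to the mean of the other two, on a log axis, for the 5 genes (red) and as the median over gene lists (grey). The 5 genes lie between 2.74 and 7.09 and the neuron markers at 0.554, while the median of all genes is 1.14.

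After chronic 1 mM dopamine *GADD45B* and *GADD45G* were higher than PBS at 1 h. At Chronic 1 h *GADD45B* was at TPM 39.4, 47.8 and 38.3, a log2(fold change) from PBS of 3.33 ± 0.60 (edgeR adjusted p = 0.0153). *GADD45G* was at TPM 204, 252 and 215, with log2(fold change) 1.53 ± 0.36 (edgeR adjusted p = 0.0485). Both sets of libraries lay above all PBS libraries, and these were 2 of the 5 genes where 1.27% of all genes were called higher. With 1 of the 15 libraries left out the call of *GADD45B* was lost in 4 fits and that of *GADD45G* in 10. *GADD45A* was at 189, 208 and 174, also above all PBS libraries, with log2(fold change) 0.96 ± 0.32 (edgeR adjusted p = 0.144). *CDKN1A* stood at 407, 501 and 370.1 and *MDM2* at 45.5, 52.6 and 46.8. Without the first Acute 24 h library all 5 were called higher, where 9.25% of genes were, including *GADD45A* at 0.96 ± 0.08 (edgeR adjusted p = 2.52e-06), *CDKN1A* at 0.69 ± 0.16 (edgeR adjusted p = 0.00735) and *MDM2* at 0.49 ± 0.06 (edgeR adjusted p = 6.7e-05).

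Whether the response weakened with repeated dosing was asked by comparing Chronic 1 h with Acute 1 h. In the fit of all groups none of the 5 genes was called by edgeR or DESeq2, and none had an unadjusted p under 0.05. There 11.3% of all genes were called. With only Chronic 1 h and Acute 1 h in the fit, all but 1 of the 5 genes were called, so the result depends on the fit. The share of all genes called in that fit is not given here. That count does not measure weakening, because the TPM of the genes, given below, moved in both directions. Without the first Acute 24 h library 1 of the 5, *GADD45A*, was lower at Chronic 1 h by a log2(fold change) of -0.32 ± 0.08 (edgeR adjusted p = 0.00584), in a fit that called 16.6% of genes lower. The libraries of *GADD45A* did not overlap, with 214 to 235 at Acute 1 h and 174 to 208 at Chronic 1 h. In the opposite order, all Chronic 1 h libraries were above all Acute 1 h libraries for *GADD45G* (204 to 252 against 166 to 182), *CDKN1A* (370.1 to 501 against 300.4 to 308) and *MDM2* (45.5 to 52.6 against 40.6 to 42.4). How many of all genes separated in this way was not counted.

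By Chronic 24 h the GADD45 genes were near PBS. *GADD45B* was at TPM 3.32, 4.65 and 6.30, *GADD45G* at 72.7, 53.3 and 103, and *GADD45A* at 99.4, 119 and 106. The first pair overlapped PBS and *GADD45A* lay just above it. *GADD45B* exceeded its Chronic 24 h level at Chronic 1 h by a log2(fold change) of 3.12 ± 0.59 (edgeR adjusted p = 0.0422), in a comparison where 0.331% of genes were called higher, and the call was lost in 12 of the 15 fits that left out 1 library. Without the first Acute 24 h library it was 3.12 ± 0.22 (edgeR adjusted p = 2.34e-07). *GADD45G* (1.54 ± 0.15, edgeR adjusted p = 1.28e-05) and *GADD45A* (0.80 ± 0.08, edgeR adjusted p = 2.01e-05) were then called higher at Chronic 1 h too. So was *MDM2* (0.22 ± 0.06, edgeR adjusted p = 0.047), while *CDKN1A* was not. The share of all genes called in that fit is not given here. Against PBS none of the 5 genes was called at Chronic 24 h by edgeR or DESeq2, none had an unadjusted p under 0.05, and 0.663% of all genes were called. *CDKN1A* was at 357, 515 and 287, with 0.57 ± 0.29 as log2(fold change) (edgeR adjusted p = 0.52), and *MDM2* at 41.3, 38.4 and 43.5, with 0.27 ± 0.31 (edgeR adjusted p = 0.867). Without the first Acute 24 h library these same differences, 0.57 ± 0.16 and 0.27 ± 0.06, were called (edgeR adjusted p = 0.0375 and 0.013), where 3.06% of genes were called higher. Summed dividing progenitor markers were 1196 to 1327 at Chronic 24 h and 1436 to 1491 in PBS, and their part in the *CDKN1A* result was not tested.

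**Figure D3:**
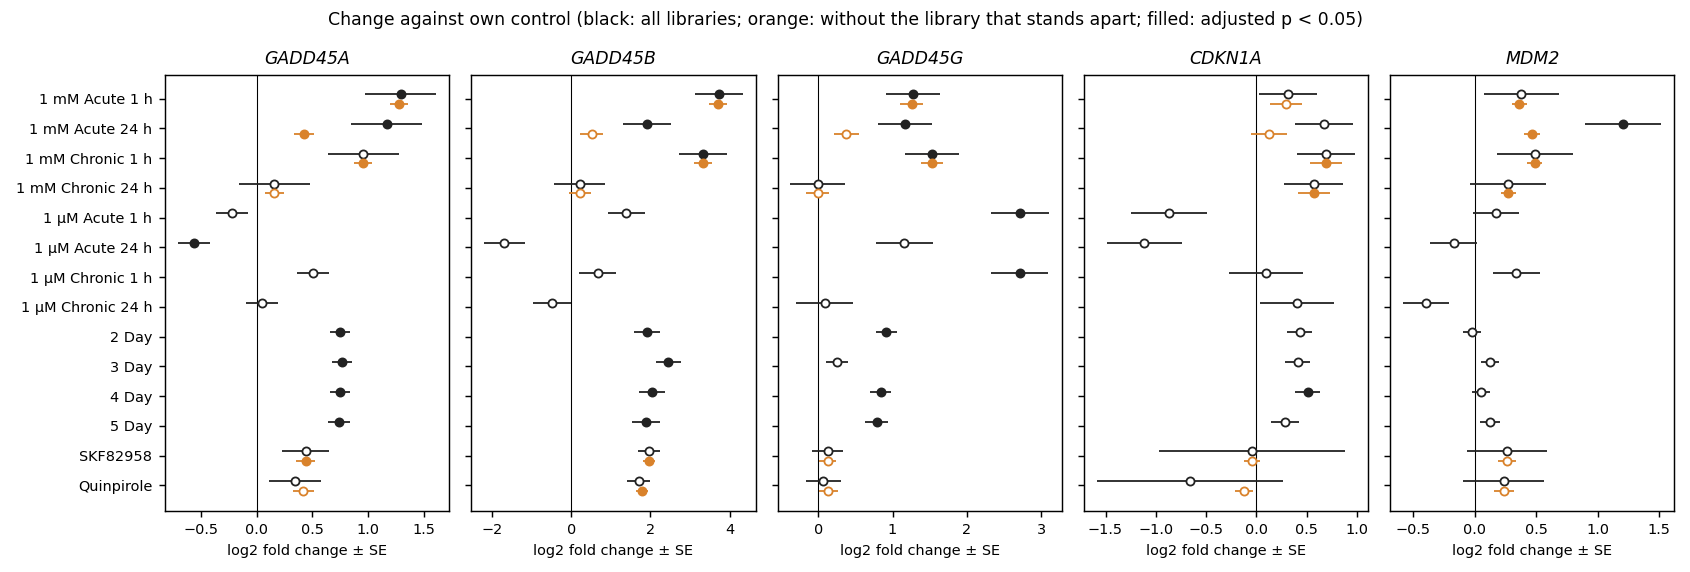
log2(fold change) of the 5 genes against their own control in each condition, with bars of 1 SE and filled symbols for an edgeR adjusted p under 0.05. Orange marks fits without the first 1 mM Acute 24 h library (1 mM conditions) or without quinpirole replicate 1 (agonists), where *GADD45B* at 1 mM Acute 24 h goes from 1.92 to 0.51.

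At 1 µM dopamine *GADD45G* was the gene of the 5 with the largest rise at 1 h. It was at TPM 14.9, 17.9 and 18.9 in the PBS libraries, 127, 47.4 and 186 at Acute 1 h, and 152, 66.5 and 125 at Chronic 1 h. All dosed libraries were above all PBS libraries, with the second library the lowest in both dosed groups. The log2(fold change) was 2.72 ± 0.39 at Acute 1 h (edgeR adjusted p = 0.000877) and 2.71 ± 0.39 at Chronic 1 h (edgeR adjusted p = 0.00231). It was the only gene of the 5 that edgeR called higher in either, where 3.25% and 1.75% of 16541 genes were. DESeq2 called 2 of the 5 in each, among 1770 and 945 genes called. With only the 2 groups compared in the fit, the Acute 1 h call did not hold (edgeR adjusted p = 0.0537). At Acute 24 h the gene was at 32.2, 46.0 and 44.0, still above all PBS libraries, with 1.16 ± 0.38 (edgeR adjusted p = 0.121), a difference that DESeq2 called (adjusted p = 0.047) and edgeR called without replicate 2 of Acute 1 h (adjusted p = 0.0355). Acute 1 h against Acute 24 h, at 1.56 ± 0.37, was not called (edgeR adjusted p = 0.0788). At Chronic 24 h it was at 28.8, 12.4 and 17.4, and Chronic 1 h exceeded Chronic 24 h by 2.62 ± 0.38 (edgeR adjusted p = 0.00254), with 1.55% of genes called higher. The PBS level of *GADD45G* was itself far apart between the experiments, 17.2 ± 2.06 here and 75.3 ± 4.15 (SD, n = 3) in the 1 mM experiment, although neither set received dopamine.

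*GADD45B* was at TPM 5.58, 7.64 and 6.42 in the 1 µM PBS libraries and at 22.4, 6.60 and 26.6 at Acute 1 h. Replicates 1 and 3 of the dosed group were high and replicate 2 lay within the PBS range, and the log2(fold change) of 1.39 ± 0.47 was not called (edgeR adjusted p = 0.101). Without the second Acute 1 h library it was 1.75 (edgeR adjusted p = 0.0264). At Acute 24 h it was at 0.860, 3.59 and 1.99, below all PBS libraries, with log2(fold change) -1.69 ± 0.51 (edgeR adjusted p = 0.0944). That difference was called in 1 of the 15 fits that left out 1 library (edgeR adjusted p = 0.0372). Acute 1 h exceeded Acute 24 h by 3.08 ± 0.52 (edgeR adjusted p = 0.0108), where 0.447% of genes were called higher, and this call was lost without replicate 1 or replicate 3 of Acute 24 h (edgeR adjusted p = 0.0657 and 0.085) and with only those 2 groups in the fit (edgeR adjusted p = 0.184). At Chronic 1 h it was at 16.0, 5.92 and 10.1, with 0.67 ± 0.47 (edgeR adjusted p = 0.581).

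*GADD45A* was not called higher at 1 µM Acute 1 h. It was at TPM 75.2, 61.7 and 70.7 in PBS and at 57.2, 54.8 and 63.5 after 1 h, overlapping, with log2(fold change) -0.23 ± 0.14 (edgeR adjusted p = 0.423). At Acute 24 h it was at 37.2, 54.0 and 55.7, below all PBS libraries, and was the 1 gene of the 5 that edgeR called in the fit of all groups, lower by -0.57 ± 0.14 (edgeR adjusted p = 0.0466), where 1.91% of genes were called lower. That call rests close to the threshold and was lost in 11 of the 15 fits that left out 1 library and with only those 2 groups in the fit (edgeR adjusted p = 0.0951). DESeq2 called 4 of the 5 genes there, among 1201 genes called, and 4 had an unadjusted edgeR p under 0.05. The *GADD45A* libraries of Chronic 1 h, at 97.3, 85.7 and 103, were above all PBS libraries, with 0.50 ± 0.14 (edgeR adjusted p = 0.0885). They exceeded Acute 1 h by 0.73 ± 0.14 (edgeR adjusted p = 0.0253), where 0.556% of genes were called higher, a call lost without the first Acute 1 h library or any 1 Chronic 1 h library (edgeR adjusted p = 0.0575 to 0.0674) and with only those 2 groups in the fit (edgeR adjusted p = 0.425).

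*CDKN1A* varied widely among replicates at 1 µM. It was at TPM 367, 167 and 311 in PBS, 209, 47.9 and 209 at Acute 1 h, and 97.1, 153 and 144 at Acute 24 h. The second library was the lowest in PBS, Acute 1 h and Chronic 1 h. The log2(fold change) was -0.87 ± 0.37 at Acute 1 h (edgeR adjusted p = 0.205) and -1.11 ± 0.38 at Acute 24 h (edgeR adjusted p = 0.133), with all Acute 24 h libraries below all PBS libraries. Without the second Acute 1 h library the Acute 24 h difference, again -1.11, was called (edgeR adjusted p = 0.0182). *MDM2*, at 45.5, 40.0 and 40.4 in PBS, lay above all PBS libraries at Chronic 1 h (50.9, 51.3 and 52.0) and below them at Chronic 24 h (30.3, 30.9 and 37.8). It was not called in either or between them (edgeR adjusted p = 0.455, 0.867 and 0.0656). At Chronic 24 h none of the 5 genes was called by edgeR or DESeq2, none had an unadjusted p under 0.05, and edgeR called 0.0% of all genes, with 608 at an unadjusted p under 0.05.

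The change from PBS was compared between doses in 1 fit of both experiments. At Acute 1 h the change of *GADD45A* was larger at 1 mM by 1.54 ± 0.35 on the log2 scale (edgeR adjusted p = 0.0213), and 1.09% of genes were called with a larger change at 1 mM. That call was lost without any 1 of the 1 mM PBS libraries or the first 1 mM Acute 1 h library (edgeR adjusted p = 0.0512 to 0.0548). *GADD45B* differed by 2.33 ± 0.75 (edgeR adjusted p = 0.107), *CDKN1A* by 1.20 ± 0.50 (edgeR adjusted p = 0.24) and *GADD45G* the other way, by -1.44 ± 0.54 (edgeR adjusted p = 0.182). Leaving out the first 1 mM Acute 24 h library, which is in no group of this contrast but changed the shared spread and the number of genes tested (18390 to 18913), brought *GADD45B* (2.33, edgeR adjusted p = 0.011) and *GADD45G* (-1.44, edgeR adjusted p = 0.0493) past the threshold, in a fit that called 5.1% of genes in either direction. At Chronic 1 h none of the 5 genes was called, with *GADD45B* at 2.63 ± 0.76 (edgeR adjusted p = 0.217) and *GADD45G* at -1.21 ± 0.54 (edgeR adjusted p = 0.562), while 2 had an unadjusted p under 0.05, DESeq2 called 1, and 0.087% of all genes were called. The doses were tested in separate sets of cultures, so dose and experiment cannot be told apart. Summed neuron markers were 1778 to 2704 at 1 µM and 2987 to 3975 at 1 mM outside the first Acute 24 h library, and dividing progenitor markers were 1696 to 2259 at 1 µM against 1196 to 1600.4 at 1 mM. Their part in the dose differences was not tested.

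In the time course of daily 1 mM dopamine, *GADD45A* and *GADD45B* were raised at every day sampled. *GADD45B*, at TPM 6.82, 6.64 and 6.87 with ascorbic acid, was at 24.5, 28.2 and 16.6 after 2 days, 16.9, 41.1 and 45.6 after 3, 26.0, 24.6 and 31.7 after 4, and 17.3 and 29.1 after 5. Each dosed library was above every control library, and the days overlapped one another. The log2(fold change) was 1.91 ± 0.32 at 2 Day (edgeR adjusted p = 0.00497), 2.45 ± 0.32 at 3 Day (edgeR adjusted p = 0.000377), 2.04 ± 0.32 at 4 Day (edgeR adjusted p = 0.00258) and 1.88 ± 0.36 at 5 Day (edgeR adjusted p = 0.0159). The 5 Day call of *GADD45B* was lost without replicate 3 of that group (1.69, edgeR adjusted p = 0.0563) and without the first or the second ascorbic acid library (edgeR adjusted p = 0.0678 and 0.067).

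*GADD45A* was the steadiest of the 5 genes over the days. It was at TPM 52.9, 51.7 and 53.9 with ascorbic acid, 75.6, 89.6 and 76.1 at 2 Day, 81.9, 86.7 and 83.1 at 3 Day, 90.9, 83.2 and 87.5 at 4 Day, and 69.9 and 92.2 at 5 Day. No dosed library reached down to the control range. The log2(fold change) was 0.75 ± 0.09, 0.77 ± 0.09, 0.75 ± 0.09 and 0.74 ± 0.10 in that order (edgeR adjusted p = 0.000364, 0.000142, 0.000313 and 0.00115).

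*GADD45G* did not follow the same course. It was at TPM 57.7, 49.1 and 56.7 with ascorbic acid and at 88.4, 95.1 and 97.3 at 2 Day, a log2(fold change) of 0.92 ± 0.14 (edgeR adjusted p = 0.00242). At 3 Day it was at 69.7, 56.8 and 56.0, overlapping the control, with 0.26 ± 0.14 (edgeR adjusted p = 0.323), and at 4 Day at 87.4, 99.0 and 100.3, with 0.84 ± 0.14 (edgeR adjusted p = 0.00422). The 5 Day libraries were far apart, at 56.2 and 120.0. The difference of 0.78 ± 0.16 there (edgeR adjusted p = 0.0208) was lost without replicate 3 of that group (0.38, edgeR adjusted p = 0.19) and without the first or the second ascorbic acid library (edgeR adjusted p = 0.0687 and 0.0946). The dip at 3 Day against the other days was not tested.

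*CDKN1A* was called higher at 4 Day, at TPM 251, 234 and 273 against 189, 178 and 176 with ascorbic acid, a log2(fold change) of 0.51 ± 0.12 (edgeR adjusted p = 0.0311). Each control and each 4 Day library was needed for that call, since edgeR adjusted p was 0.0514 to 0.141 when any 1 was left out. At 2 Day, at 210, 258 and 196, it was 0.43 ± 0.12 (edgeR adjusted p = 0.0657), at 3 Day 0.41 ± 0.12 (edgeR adjusted p = 0.0567) and at 5 Day 0.28 ± 0.14 (edgeR adjusted p = 0.347). *MDM2* was at 27.5 to 38.0 in all dosed libraries and 31.2 to 34.6 in the controls, overlapping, and was not called on any day. In all, 3, 2, 4 and 3 of the 5 genes were called higher at 2, 3, 4 and 5 Day, where 1.89%, 4.77%, 2.58% and 1.23% of all genes were. None of the 5 differed between 5 Day and 2 Day by edgeR or DESeq2, none had an unadjusted p under 0.05, and 0.0239% of all genes were called. Summed dividing progenitor markers were 1020 to 1443 in the dosed libraries and 1448 to 1534 in the controls, and mesenchymal markers 214 to 443 against 167 to 223. Their part in these results was not tested.

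**Figure D4:**
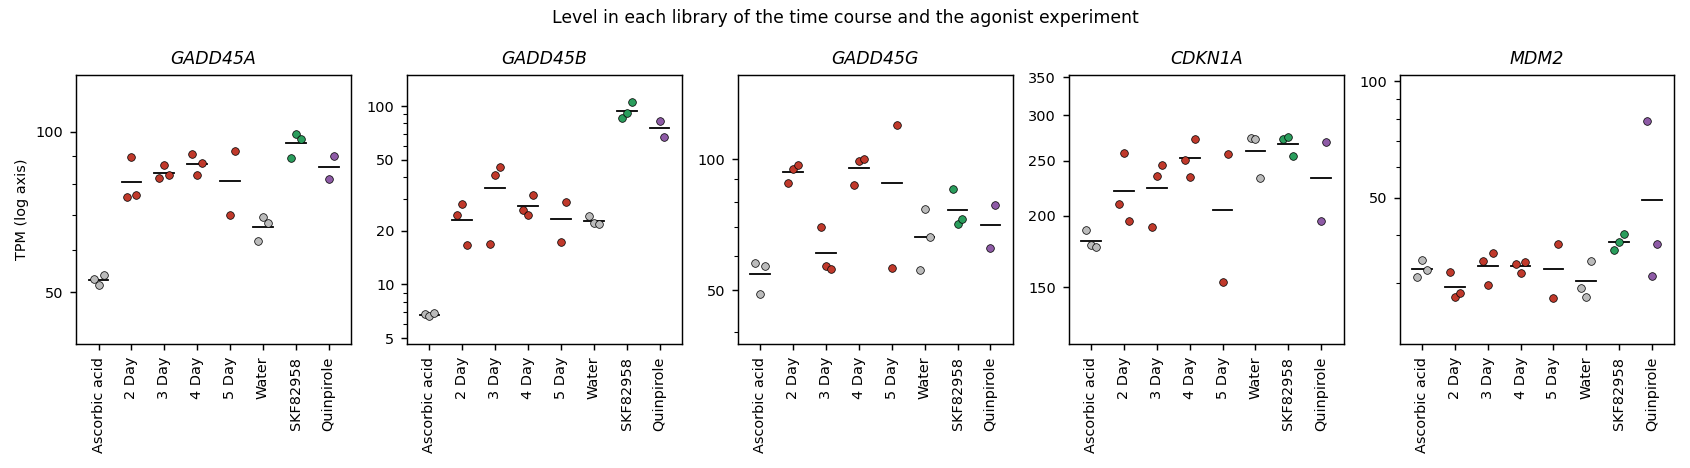
Level of each gene in every library of the time course and the agonist experiment, as TPM on a log axis with group means as lines. Quinpirole replicate 1 is not drawn where it is at 0 and the mean then leaves it out, while its *MDM2* value of 79.1 is drawn and enters that mean. *GADD45B* after SKF82958, at 86.3 to 105, lies above all water libraries at 21.8 to 24.3.

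Among the agonist libraries *GADD45B* was again the gene that moved furthest. It was at TPM 24.3, 22.0 and 21.8 with water, 86.3, 91.6 and 105 with SKF82958, and 0, 83.0 and 66.9 with quinpirole. Apart from the library at 0, every agonist library was above every water library. Quinpirole replicate 1 also listed *GADD45A*, *GADD45G* and *CDKN1A* at 0, but at its depth 0 reads allow TPM up to 45.3 for *GADD45B*, 50.2 for *GADD45A*, 73.1 for *GADD45G* and 31.7 for *CDKN1A*, and its *MDM2* value of 79.1 rests on 33 reads. With that library in the fit none of the 5 genes was called by edgeR or DESeq2 for either agonist, 1 gene had an unadjusted p under 0.05 in each, and 0.0124% and 0.0% of all genes were called. *GADD45B* then stood at 1.97 ± 0.27 for SKF82958 (edgeR adjusted p = 0.133) and 1.71 ± 0.29 for quinpirole (edgeR adjusted p = 0.571) as log2(fold change).

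Without that library *GADD45B* was raised by both agonists, by a log2(fold change) of 1.97 ± 0.14 for SKF82958 (n = 3, edgeR adjusted p = 2.2e-06) and 1.79 ± 0.16 for quinpirole (n = 2, edgeR adjusted p = 3.68e-05). *GADD45A*, at TPM 62.5, 69.2 and 67.6 with water, was at 89.4, 99.2 and 97.0 with SKF82958 and 81.5 and 90.2 with quinpirole, above all water libraries in both. Its difference was called for SKF82958 (0.44 ± 0.08, edgeR adjusted p = 0.0204) and not for quinpirole (0.42 ± 0.09, edgeR adjusted p = 0.167). Thus 2 of the 5 genes were called higher for SKF82958, where 0.612% of 16343 genes were, and 1 for quinpirole, where 0.184% were. *GADD45G* was at 55.8 to 76.8 with water and 71.0 to 85.6 with SKF82958, *CDKN1A* at 233 to 274 and 254 to 275, and both overlapped. *MDM2* was at 36.5 to 40.2 with SKF82958, above all water libraries at 27.6 to 34.2, and its difference of 0.26 ± 0.07 was not called (edgeR adjusted p = 0.174). Compared with each other, the agonists were not called different for *GADD45B*, at 0.18 ± 0.14 on the log2 scale higher with SKF82958 (edgeR adjusted p = 0.998), and none of the 5 genes was called or had an unadjusted p under 0.05, with 0.0% of all genes called and 748 at an unadjusted p under 0.05. The labels give the same dose for the agonists, and the hour of collection of the SKF82958 libraries is not given in the sources used here. The water level of *GADD45B*, 22.7 ± 1.42, was itself above the PBS levels of 4.03 ± 1.70 and 6.55 ± 1.04 (SD, n = 3) in other experiments.

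The other genes of these pathways were taken as lists and described by counts, since the lists were chosen with results in view. The 38 other p53 targets (apoptosis, DNA repair and metabolism genes) had 4 higher and 1 lower at 1 mM Acute 1 h, near the 8.04% and 7.94% of all genes, and a median log2(fold change) of 0.13 against 0.01 over all genes. *PMAIP1*, which encodes the apoptosis protein NOXA, rose from TPM 20.6 ± 1.86 to 35.3 ± 0.928 (SD, n = 3), a log2(fold change) of 0.84 ± 0.16 (edgeR adjusted p = 0.00462). *EDA2R*, a death receptor gene, fell by 0.76 on the log2 scale (edgeR adjusted p = 0.0362). At 1 mM Acute 24 h 6 were higher and 0 lower with a median of 0.41, where 8.38% and 7.09% of all genes were, but without the first library 8 were higher and 3 lower with a median of 0.09, where 11.1% of all genes were called in each direction. One hour after chronic dosing 1 was higher (1.27% of all genes), and 16 were higher and 2 lower without that library (9.25% and 9.1% of all genes), with a median of 0.23 in both fits. At Chronic 24 h none was called, and 5 were higher without it (3.06% of all genes), including *BAX*, the pore-forming apoptosis protein, at 0.44 (edgeR adjusted p = 0.00154).

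At 1 µM the calls among the same 38 genes were lower ones on the acute schedule. At Acute 1 h 0 were higher and 6 lower with a median of -0.21, and at Acute 24 h 0 were higher and 8 lower with a median of -0.33, beside 0.02 and 0.01 over all genes and 2.52% and 1.91% of genes called lower. *ZMAT3*, an RNA-binding p53 target, fell from TPM 83.9 ± 10.4 to 36.9 ± 5.22 at Acute 24 h, a log2(fold change) of -1.24 ± 0.15 (edgeR adjusted p = 0.000554). *EDA2R* went from 61.5 ± 2.47 to 24.9 ± 0.776, with -1.38 ± 0.22 (edgeR adjusted p = 0.00367), and *RRM2B*, a ribonucleotide reductase subunit used in DNA repair, by -0.82 (edgeR adjusted p = 0.0143). At Chronic 1 h 2 were higher and 0 lower (1.75% of all genes higher), *TIGAR* at 1.20 ± 0.19 (edgeR adjusted p = 0.00385) and the p53 phosphatase *PPM1D* at 0.60 (edgeR adjusted p = 0.032). At Chronic 24 h none was. In the time course 1 rose and 2 fell at 2 Day, 4 rose and 2 fell at 3 Day, 1 rose and 1 fell at 4 Day and none was called at 5 Day, where 1.89%, 4.77%, 2.58% and 1.23% of all genes were called higher and 1.99%, 2.6%, 1.8% and 0.406% lower, and with the agonists none was called.

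**Figure D5:**
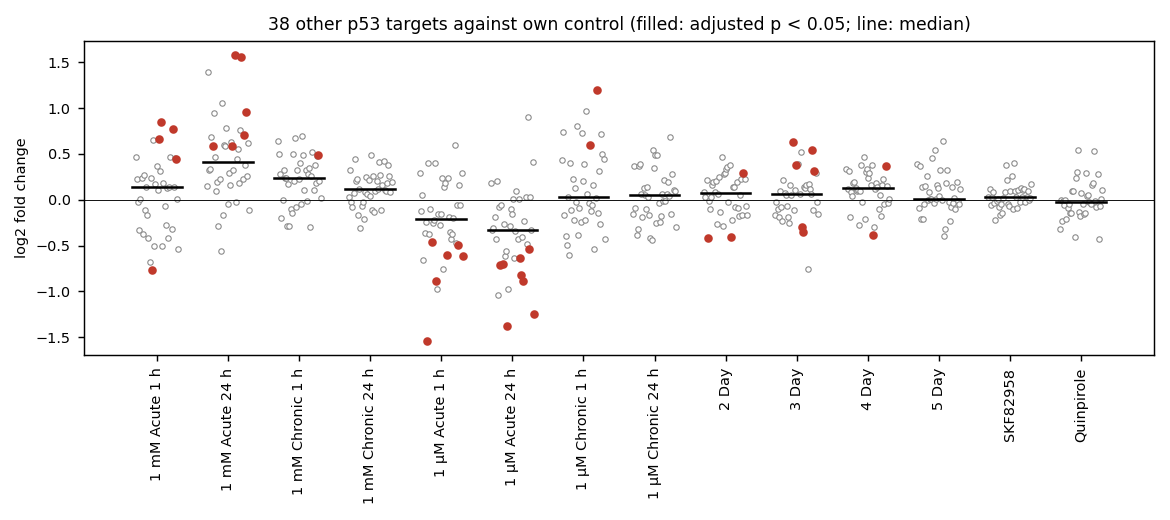
log2(fold change) of 38 other p53 targets against their own control in each condition, one point a gene, filled red for an edgeR adjusted p under 0.05, with the median as a line. The median is 0.41 at 1 mM Acute 24 h with all libraries, and -0.21 and -0.33 at 1 µM Acute 1 h and Acute 24 h.

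A further 8 p53 targets are also known as immediate early or stress genes, and are given apart. At 1 mM Acute 1 h 4 of 8 were higher, none lower, with a median of 0.83, where 8.04% of all genes were higher. *ATF3*, a stress-induced transcription factor, rose from TPM 12.9 ± 2.55 to 125 ± 30.4, a log2(fold change) of 3.34 ± 0.43 (edgeR adjusted p = 4e-04), and *BTG2*, an antiproliferative early gene, from 88.7 ± 9.30 to 255 ± 23.1, with 1.59 ± 0.28 (edgeR adjusted p = 0.00327). After chronic dosing 4 of 8 were higher at 1 h with a median of 0.90 (1.27% of all genes), and in the time course 4, 5, 4 and 2 of 8 were higher at 2, 3, 4 and 5 Day (1.89%, 4.77%, 2.58% and 1.23% of all genes). With SKF82958, leaving out quinpirole replicate 1, *ATF3* went from 19.9 ± 1.51 to 74.1 ± 1.65, with 1.81 ± 0.08 (edgeR adjusted p = 6.86e-09). At 1 µM Acute 1 h 2 were higher and 1 lower, beside 3.25% and 2.52% of all genes.

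Of 27 immediate early genes outside these lists, 18 were higher at 1 mM Acute 1 h and 13 at Chronic 1 h, where 8.04% and 1.27% of all genes were. At 1 µM 11 and 12 were, beside 3.25% and 1.75% of all genes, and 21, 20, 22 and 17 over the days of the time course, beside 1.89%, 4.77%, 2.58% and 1.23%. Without quinpirole replicate 1, 15 were higher with SKF82958 and 13 with quinpirole, beside 0.612% and 0.184%. Among 15 regulators of p53 itself, 1 was higher and 1 lower at 1 mM Acute 1 h, not above the 16% of all genes called there in either direction, the kinase *HIPK2* at 0.67 ± 0.08 (edgeR adjusted p = 0.00024) and the p53 inhibitor *PPP1R13L* at -1.17. None of them was called in Chronic 1 h, the 1 µM experiment, the time course or with the agonists in the fits of all libraries.

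Among 6 other inhibitors of cyclin-dependent kinases, *CDKN2B* (p15) rose from TPM 7.35 ± 0.888 to 38.6 ± 3.67 at 1 mM Acute 1 h, a log2(fold change) of 2.46 ± 0.32 (edgeR adjusted p = 0.000422), and *CDKN2A* by 1.39, the 2 called there (8.04% of all genes higher). *CDKN2B* also rose at 3 Day, by 1.50. Of 12 partners of GADD45 proteins, 2 were higher and 1 lower at 1 mM Acute 1 h, and the 3 calls stand against 16% of all genes, with *PCNA*, the sliding clamp that GADD45 proteins bind, at TPM 438 ± 15.1 against 311 ± 18.4. Of 11 genes of active DNA demethylation tested, 1 was higher and 1 lower at 1 mM Acute 1 h, again beside 16% of all genes, and *TET1*, a dioxygenase that oxidises methylcytosine, fell from 28.2 ± 4.96 to 12.8 ± 0.963, with -1.07 (edgeR adjusted p = 0.0118). None of them was called at 1 µM. A last list held 10 other GADD and DDIT stress genes, a set and not 1 gene family. Of these *DDIT4*, an inhibitor of mTORC1, fell at 1 mM Acute 1 h from 880 ± 395, a wide spread in PBS, to 188 ± 25.2, with -2.16 ± 0.31 (edgeR adjusted p = 0.000837), and was lower at Chronic 1 h (-1.55) and Chronic 24 h (-2.01) too. *PPP1R15A* (GADD34), which restarts translation after stress, went the other way and rose by 0.88 at Acute 1 h. How many of the 10 were called is not given here, so these 2 genes do not describe the list. At Acute 1 h 16% of all genes were called in either direction.

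The pattern of each gene over the 14 comparisons with a control was last set against the same pattern in 14942 genes, by Pearson's r of log2(fold change). Comparisons of 1 experiment share control libraries, so r is a description. Closest to *GADD45B* was *ZFP36* (r = 0.961), an early-response regulator of mRNA decay, and it was closest as well without the 2 libraries that stand apart (0.952). *GADD45A* was most like *SPRY2* (0.938) and *EPHA2* (0.933), the latter closest without those libraries (0.935). *GADD45G* was most like *ABITRAM* (0.961), *CDKN1A* like *TOM1* (0.938) and *MDM2* like *SRP19* (0.960), and the closest gene then became *FASTKD3* (0.960), *ICAM1* (0.946) and *MTRES1* (0.958). Within the family, r was 0.844 between *GADD45A* and *GADD45B*, 0.07 between *GADD45B* and *GADD45G* and -0.03 between *GADD45A* and *GADD45G*. *CDKN1A* had r = 0.743 with *GADD45A* and 0.324 with *MDM2*.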

How the data were processed

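RNA-seq of 53 libraries was used, and 1 further 5 Day library was not used here. Using CLC Genomics Workbench, the authors trimmed reads and aligned them to the human genome GRCh38 (Ensembl genes), then deposited 1 table per library with read counts on exons and introns and TPM values. The deposited TPM was checked to be exon reads divided by exon length, scaled to the same sum. The strand of counting, and which of the named providers sequenced each library, are not given in the sources used here, so no batch was modelled. The CGS21680 libraries were not analysed here. Columns of totals, unique and intron reads were used only for checks and alternatives.

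Total exon read counts were tested in edgeR 4.0.16 (R 4.3.3) by the quasi-likelihood test with filterByExpr (minimum count 10, minimum total 15), TMM scaling, all groups of an experiment in 1 fit, and Benjamini-Hochberg adjustment over all genes tested. A call is an adjusted p under 0.05. The SE of a log2(fold change) is its size over the root of the F statistic. DESeq2 1.42.0 and other settings were alternatives. On simulated counts for 1 mM Acute 1 h (17538 genes), 78% of genes changed 2-fold and 99% of those changed 4-fold were called, and for 1 µM Acute 1 h (16218 genes) 50% and 96%, so a 2-fold change at 1 µM could be missed. Libraries were grouped by their GEO titles, and no 2 libraries held identical values.

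The 5 genes and all gene lists were chosen with earlier results of these data known. Named list genes are those with the largest change among called genes of a list, up to 4 per list. *XPC* is in 2 lists. The mean correlation of same-numbered libraries was 0.002 in the 1 mM and 0.023 in the 1 µM experiment. At 1 µM it ran from -0.301 to 0.446, with 14 of 30 pairs over 0.1. Replicate numbers were not taken to pair libraries in the main fits, and a fit with them as a block is given below.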

Additional observations from a re-analysis of the deposited data

Results flagged for a closer look

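The responses of *GADD45A* to the 2 doses differed at Acute 1 h by the test of the difference itself, 1.54 on the log2 scale (edgeR adjusted p = 0.0213). Its log2(fold change) was 1.30 at 1 mM, with every dosed library above PBS, and -0.23 at 1 µM, with 3 libraries in each group. The call for the difference was lost in 4 of the 30 fits that left out 1 library. Of all genes, 1.09% were called with a larger change at 1 mM. The doses were tested in separate experiments, so dose and experiment cannot be told apart. *CDKN1A* had opposite signs at Acute 1 h, 0.31 at 1 mM and -0.87 at 1 µM. Neither change was called in the fits of all groups (edgeR adjusted p = 0.502 and 0.205). At 1 µM its dosed libraries overlapped PBS. The test of the difference between doses did not pass (edgeR adjusted p = 0.24).

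At Acute 24 h several genes had opposite signs at the doses, and these differences were not tested. *GADD45A* was at 1.17 for 1 mM and -0.57 for 1 µM, *GADD45B* at 1.92 and -1.69, and *CDKN1A* at 0.67 and -1.11. The 1 mM values include the first Acute 24 h library, and without it they were 0.42, 0.51 and 0.13. At Chronic 24 h *MDM2* was at 0.27 for 1 mM and -0.40 for 1 µM, also not tested, with neither dose called, although the 1 mM difference was called without the first Acute 24 h library (edgeR adjusted p = 0.013).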

How the results depend on the processing

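Each count below is of the 5 genes called, against the count in the report. The share of all genes called in each alternative fit is not given here. The counts therefore show only how far calls depend on the processing, and not how the 5 genes stand against other genes. With only the 2 groups compared in a fit, the count at 1 mM was 5 at Acute 1 h, 0 at Acute 24 h, 5 at Chronic 1 h, 4 for Chronic 1 h against Acute 1 h and 3 for Chronic 1 h against 24 h, at 1 µM it was 0 at Acute 1 h, 0 for Chronic 1 h against Acute 1 h, 0 for Acute 1 h against 24 h and 2 for Chronic 1 h against 24 h, and with SKF82958 it was 2. With DESeq2 it was 1 for 1 mM Acute 1 h against 24 h and 2 for Chronic 1 h against 24 h, at 1 µM 2 at Acute 1 h, 4 at Acute 24 h, 2 at Chronic 1 h, 2 for Acute 1 h against 24 h and 3 for Chronic 1 h against 24 h, between doses 2 at Acute 1 h and 1 at Chronic 1 h, and in the time course 4 at 2 Day and 3 at 3 Day, where *CDKN1A* was added. With DESeq2's size factors in edgeR it was 1 at 1 mM Chronic 1 h. With total gene reads it was 1 at 1 mM Chronic 1 h and 0 for Chronic 1 h against 24 h, at 1 µM 0 at Acute 24 h, 2 at Chronic 1 h, 0 for Acute 1 h against 24 h and 2 for Chronic 1 h against 24 h, and 3 between doses at Acute 1 h. Without a filter on low counts it was 1 and 2 for 1 mM Acute and Chronic 1 h against 24 h, 0 at 1 µM Acute 24 h, 2 and 2 for 1 µM Acute and Chronic 1 h against 24 h, and 2 between doses at Acute 1 h. Requiring at least 10 reads in every library gave 0 and 2 for the last 1 µM pair, and unique exon reads gave 2 for Chronic 1 h against 24 h. With a threshold that also asks for a 2-fold change, which the study set for the dose experiments and not for the time course, it was 0 at 1 µM Acute 24 h and for Chronic 1 h against Acute 1 h, and 1 on each day of the time course.

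With the replicate number as a block, the count was 2 at 1 mM Acute 24 h, 1 at Chronic 1 h and 0 for Chronic 1 h against 24 h, as *GADD45B* (1.76) and *GADD45G* (1.08) at Acute 24 h, *GADD45G* at Chronic 1 h (1.55) and *GADD45B* between Chronic 1 h and 24 h (3.10) lost their calls, and no other call changed. The libraries share only a number.

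Combined alternatives were added after seeing the data. Leaving out the first 1 mM Acute 24 h library with total gene reads gave 5 at Acute 1 h, 5 at Chronic 1 h, 2 at Chronic 24 h, 2 for Chronic against Acute 1 h, and 3 and 3 for Acute and Chronic 1 h against 24 h. The same with DESeq2 gave 2 at Acute 24 h, 5 at Chronic 1 h, 2 at Chronic 24 h, 1 for Chronic against Acute 1 h, and 3 and 4 against 24 h. Leaving out quinpirole replicate 1 gave 1 for SKF82958 and 1 for quinpirole with total gene reads, and 2 and 1 with DESeq2.

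Leaving out 1 library at a time, the count was 1 to 4 at 1 mM Acute 1 h, 0 to 5 at Acute 24 h, 0 to 5 at Chronic 1 h, 0 to 2 at Chronic 24 h, 0 to 1 for Chronic against Acute 1 h, and 0 to 3 and 0 to 4 for Acute and Chronic 1 h against 24 h. At 1 µM it was 1 to 2 at Acute 1 h, 0 to 4 at Acute 24 h, 1 to 2 at Chronic 1 h, 0 at Chronic 24 h, 0 to 1 for Chronic against Acute 1 h, 0 to 2 for Acute 1 h against 24 h and 1 to 2 for Chronic 1 h against 24 h. It was 3 to 4, 2 to 3, 3 to 4 and 1 to 3 at 2, 3, 4 and 5 Day, 0 between 5 Day and 2 Day, 0 to 2 for SKF82958, 0 to 1 for quinpirole, 0 between the agonists, and 0 to 3 and 0 to 1 between doses at Acute and Chronic 1 h. A lone or paired library left in a group is assumed to vary like the others.

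Signs turned in 5 of the fits of single genes, beside 1440 fits that left the call and sign as they were, 122 that lost a call and 103 that gained one. For 1 mM Acute 1 h against 24 h, *GADD45A* ranged from -0.17 to 0.86 and *GADD45G* from -0.19 to 0.88 when 1 library was left out, and *GADD45A* with quinpirole was -0.17 with total gene reads. The cause was not tested. Depth limits *GADD45B* at 1 µM most, where a library can rest on 4 exon reads.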
